A study of Mus musculus with 58 samples.

Results

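The 36 genes described here are immediate early genes, the genes that a cell transcribes within minutes of a stimulus without first making new protein. The list also serves as a record of how cells were handled, because many of its genes are induced when a tissue is dissociated. The members were given by name and found in the deposited table of 25307 genes by matching Ensembl identifiers to symbols with the GENCODE M21 annotation. All 36 had a row. By role they comprise 6 AP-1 subunits (Fos, Fosb, Fosl2, Jun, Junb, Jund), 3 related bZIP factors (Atf3, Maff, Cebpd), 3 Egr and 3 Klf zinc finger factors (Egr1, Egr2, Egr3, Klf2, Klf4, Klf6) and 3 Nr4a orphan receptors (Nr4a1, Nr4a2, Nr4a3). A further 5 are other early regulators (Myc, Csrnp1, Ier2, Ier3, Ier5), 6 are phosphatases or signalling inhibitors (Dusp1, Dusp2, Dusp5, Socs3, Gadd45b, Ppp1r15a), 2 are mRNA decay factors (Zfp36, Zfp36l1) and 5 act in growth, survival or the cytoskeleton (Btg1, Btg2, Mcl1, Pim1, Rhob).

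Messenger RNA was sequenced from 3 cell types of the liver of 129SV mice. These were Kupffer cells (KC, the resident macrophages of the liver sinusoids), monocyte-derived macrophages (MoMF) and monocytes (Mo). There were 5 injury groups. CBDL+DSS mice had advanced cholestatic injury after ligation of the common bile duct together with acute colitis, CBDL6w mice had advanced cholestatic injury alone, CBDL2w mice were at its onset, DSS mice had acute colitis alone (dextran sulfate sodium, a chemical that damages the gut lining), and Sham6w mice were the controls. Each cell type and injury group had 4 libraries, except Sham6w MoMF and Sham6w Mo with 3, which gave 58 libraries. The labels give DSS and CBDL+DSS no time, and since the only controls are from 6 weeks, CBDL2w is set against controls of another time. Replicate labels of 9 libraries join 2 or 3 numbers, because some replicates were pooled, and each such library was used as 1 sample. The labels do not say that replicates came from separate animals, so p-values measure the spread between these samples, which may be technical. The library numbers in the labels run in blocks by injury group, so handling order and injury group cannot be told apart. How the cells were isolated is not given in the sources used here.

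AP-1 is a dimer of a Fos and a Jun protein that binds DNA, and its genes are switched on by kinase cascades acting on factors already present in the cell. The same stimulus induces the brakes on the response: Dusp1 removes phosphate from MAP kinases, Socs3 inhibits cytokine receptor signalling, and Zfp36 marks short-lived inflammatory mRNAs for decay. In macrophages these genes respond to bacterial products, cytokines and cell handling alike, and bulk levels do not say which stimulus was present.

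Libraries were made with a 3' end kit with unique molecular identifiers, so 1 transcript gives 1 tag whatever its length, and levels are given as normalized counts not divided by length. Recovered totals ran from 118687 to 521954 reads per library, with 8885 to 13360 genes detected. Both lowest values belonged to the MoMF control library Sham6w 1+2+5. The sorted labels were checked against marker lists. The 13 Kupffer cell markers took 0.324 to 1.12% of the reads in KC libraries, 0.0692 to 0.402% in MoMF and 0.0315 to 0.185% in Mo, so that KC and MoMF overlapped at the edge. The 10 monocyte markers took 0.62 to 1.3% in Mo and 0.151 to 0.627% in MoMF. The 8 macrophage markers took 0.612 to 1.66% in KC, 0.198 to 1.47% in MoMF and 0.119 to 0.41% in Mo. In DSS mice they overlapped, at 0.198 to 0.251% in MoMF and 0.172 to 0.299% in Mo. The 8 patrolling monocyte markers, which include Nr4a1, averaged 0.24% in MoMF and 0.194% in Mo. Endothelial markers differed among the monocytes, at 0.0353 to 0.0811% of the reads in the 3 ligated Mo groups, 0.217 to 0.458% in DSS Mo and 0.335 to 0.572% in Sham6w Mo. In MoMF they took 0.199 to 0.231% in DSS mice and 0.0326 to 0.0915% in the other groups. In bulk samples fewer cells of a type and less RNA per cell cannot be told apart.

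Promoter windows are shown for 5 members that rose in KC of CBDL+DSS mice relative to CBDL6w mice, to set their regulatory sequence beside those values. Each window is the 250 bases before the RefSeq transcription start on GRCm38.p6, written 5′ to 3′ on the gene's own strand, and capitals mark the letters TGACG on either strand, the core of the cyclic AMP response element through which CREB and ATF factors bind.
Fos (chr12:85473640-85473889, plus strand): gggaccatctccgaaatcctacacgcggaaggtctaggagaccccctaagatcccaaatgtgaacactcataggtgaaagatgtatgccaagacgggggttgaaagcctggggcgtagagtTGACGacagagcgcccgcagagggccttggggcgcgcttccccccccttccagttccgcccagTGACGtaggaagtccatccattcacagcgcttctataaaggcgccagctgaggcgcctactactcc
Fosb (chr7:19310046-19310295, minus strand): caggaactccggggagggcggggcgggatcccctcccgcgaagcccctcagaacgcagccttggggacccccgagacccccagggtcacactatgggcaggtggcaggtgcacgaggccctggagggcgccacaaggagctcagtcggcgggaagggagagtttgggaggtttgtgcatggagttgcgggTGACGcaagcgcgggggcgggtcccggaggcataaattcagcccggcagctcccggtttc
Dusp1 (chr17:26508473-26508722, minus strand): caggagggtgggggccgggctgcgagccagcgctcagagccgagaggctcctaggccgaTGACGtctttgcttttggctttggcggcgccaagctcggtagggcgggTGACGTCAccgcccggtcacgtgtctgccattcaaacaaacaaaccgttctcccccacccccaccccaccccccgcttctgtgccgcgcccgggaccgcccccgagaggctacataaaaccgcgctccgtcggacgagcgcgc
Klf2 (chr8:72318812-72319061, plus strand): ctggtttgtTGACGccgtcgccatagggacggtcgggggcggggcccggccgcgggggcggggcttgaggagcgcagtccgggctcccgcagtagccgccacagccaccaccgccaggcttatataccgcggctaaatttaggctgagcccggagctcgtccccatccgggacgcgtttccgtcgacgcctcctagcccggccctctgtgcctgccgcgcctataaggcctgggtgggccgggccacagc
Rhob (chr12:8500010-8500259, minus strand): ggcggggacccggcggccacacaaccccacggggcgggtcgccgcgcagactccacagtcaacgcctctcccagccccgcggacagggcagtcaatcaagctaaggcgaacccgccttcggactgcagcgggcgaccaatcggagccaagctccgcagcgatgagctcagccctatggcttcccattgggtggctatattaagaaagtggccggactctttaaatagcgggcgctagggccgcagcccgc
The Fos window held the core at 2 positions, the Dusp1 window at 3, of which a pair overlaps within the full palindrome, and the Fosb and Klf2 windows at 1 each. The Rhob window held 0. RefSeq windows were matched for 31 of the 36 members, and not for Cebpd, Egr1, Egr3, Ier2 and Myc. The core was present in 17 of these 31 genes and in 23 of their 41 windows, against 17.8% of all 32851 windows of the same length. The AP-1 site (TGACTCA or TGAGTCA, either strand) was present in 1 of the 41 member windows, of Csrnp1, against 4.46% of all windows. The CArG box, through which serum response factor binds, was present in 6 of the 41 member windows, against 1.47% of all windows. These 6 belong to 3 members (Dusp5, Egr2 and Zfp36). The letters TATAA on the sense strand were present in 9 of the 41, from 9 members, against 16.0%. These are matches of letters in a fixed window and not measured binding.

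Averaged over injury groups, most of the genes formed a gradient between cell types, with monocytes highest and Kupffer cells lowest. Dusp1 was the most abundant member in each cell type, with a mean of 222 ± 120 normalized counts in KC (SD, n = 20), 317 ± 100.5 in MoMF (n = 19) and 438 ± 135 in Mo (n = 19). Junb, an AP-1 subunit, followed with 140.4 ± 51.7 in KC, 278 ± 75.4 in MoMF and 383 ± 57.2 in Mo. The order below these differed. Jun, Zfp36, Klf2 and Fos completed the highest 6 in KC, at 113, 88.3, 82.7 and 79.3. Zfp36, Pim1, Nr4a1 and Jun did so in MoMF, at 216, 207, 180 and 168, and Pim1, Zfp36, Nr4a1 and Fos in Mo, at 341, 333, 287 and 219. Egr3 was the 1 member that passed the filter on low values in no cell type, with means of 1.06 in KC, 2.37 in MoMF and 0.542 in Mo.

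**Figure D1:**
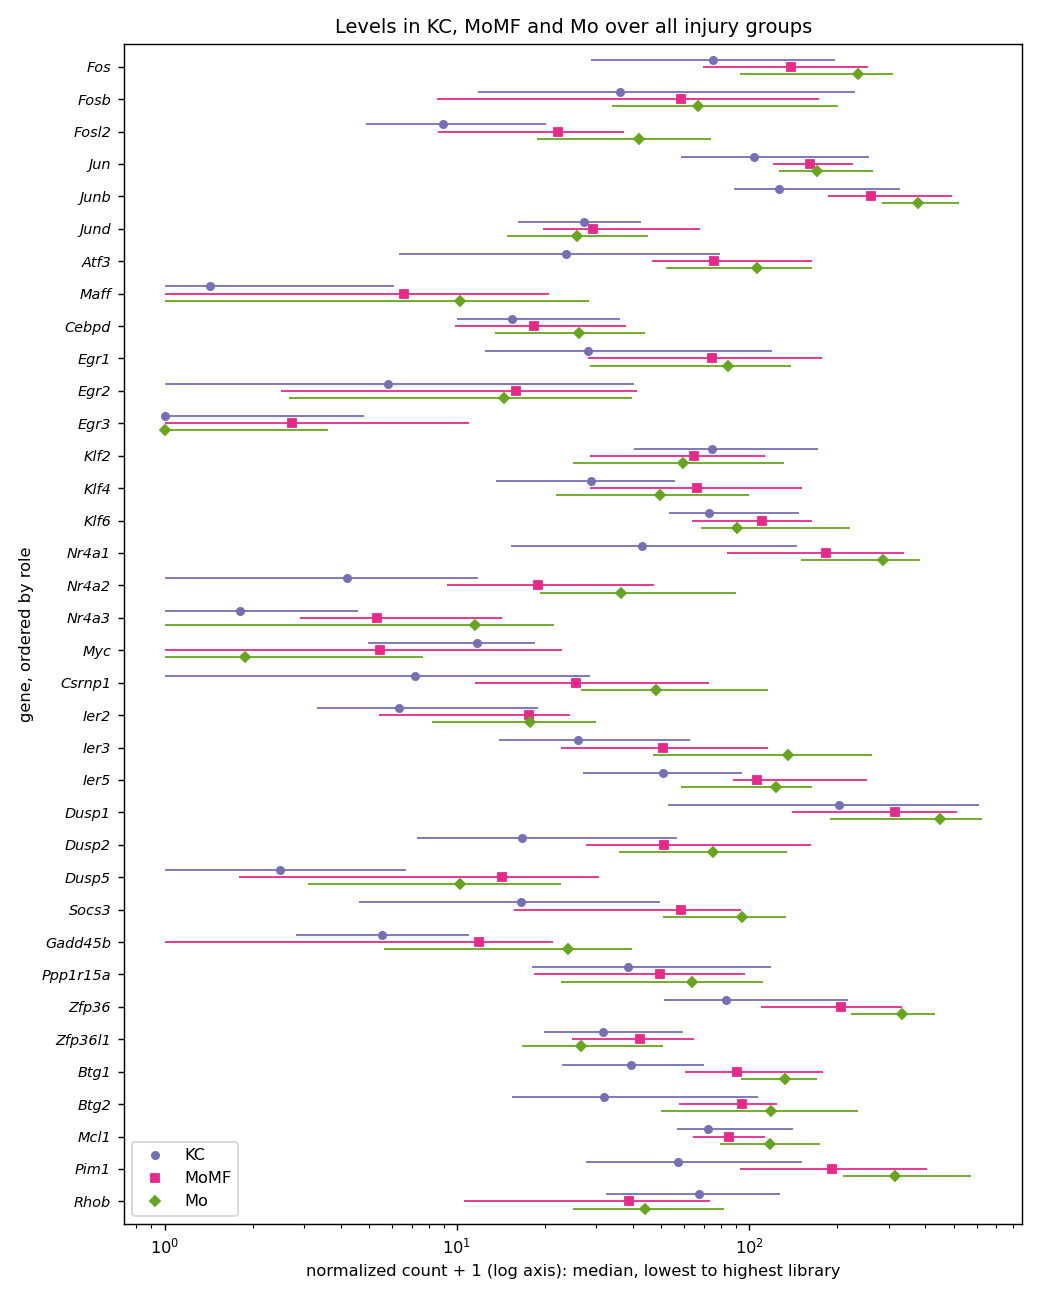
Level of each member in Kupffer cells, monocyte-derived macrophages and monocytes, as normalized count + 1 on a log axis; points are medians over libraries and lines run from the lowest to the highest library. Medians are lower in monocytes than in Kupffer cells for Jund, Klf2, Myc, Rhob and Zfp36l1, peak in monocyte-derived macrophages for Dusp5, Egr2, Egr3, Klf4 and Klf6, and step up towards monocytes for the others shown.

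Of the 35 members tested across cell types, 29 were lower and 2 higher in KC than in MoMF, averaged over the 5 injury groups (limma, Benjamini-Hochberg adjusted p under 0.05). The 29 include Maff, Nr4a2, Nr4a3, Dusp5 and Gadd45b, which averaged 1.07 to 5.07 normalized counts in KC and did not pass the filter on low values there, so that they entered through the other cell types. Of the 30 members that passed the filter in both KC and MoMF, 24 were lower and 2 higher, with a median of -1.06. Of all 7555 genes tested, 14.5% were lower and 18.0% higher, and the median log2 difference was -1.16 over the 35 members and 0.05 over all genes. Against Mo, 30 members were lower and 3 higher in KC, with a median of -1.49 against 0.06 over all genes, of which 19.6% were lower and 21.6% higher. Of the 29 that passed the filter in both KC and Mo, 25 were lower and 2 higher, with a median of -1.29; Myc, which did not pass it in Mo, is the third higher one. MoMF lay between: 16 members were lower and 2 higher in MoMF than in Mo, with a median of -0.43 against -0.01, while 7.94% of all genes were lower and 6.71% higher. Of the 32 that passed the filter in both MoMF and Mo, 16 were lower and 1 higher, with a median of -0.43. The other higher member is again Myc. With each library left out in turn, 30 to 32, 33 to 34 and 18 to 20 members passed in these 3 comparisons.

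For 5 of the members that passed the filter in both KC and Mo, the highest KC library lay below the lowest Mo library, as it did for 1.07% of all 7555 genes. Of all genes 41.2% passed that comparison in either direction. Nr4a1, a nuclear receptor needed by patrolling monocytes, averaged 49.1 ± 28.4 in KC and 287 ± 73.5 in Mo, a log2 difference of -2.67 ± 0.14 (SE, adjusted p = 3.74e-22). The kinase Pim1 averaged 68.2 in KC and 341 in Mo, the cytokine inhibitor Socs3 18.8 in KC and 93.7 in Mo, the decay factor Zfp36 88.3 in KC and 333 in Mo, and the antiproliferative Btg1 38.4 in KC and 132 in Mo. Myc, a driver of growth, ran the other way, being higher in KC than in MoMF by 1.04 ± 0.31 on the log2 scale (adjusted p = 0.00798) and than in Mo by 2.55. The small GTPase Rhob was higher in KC than in MoMF by 0.73 ± 0.12 (adjusted p = 1.84e-06) and than in Mo by 0.50. Klf2, which restrains macrophage activation, was higher in KC than in Mo by 0.45. Within single injury groups 7 members were lower in KC than in MoMF in CBDL+DSS mice, 19 in CBDL6w, 21 in CBDL2w, 23 in DSS and 18 in Sham6w mice, of 35 tested. Of all genes 2.17% were lower in KC than in MoMF in CBDL+DSS mice, 4.33% in CBDL6w, 2.81% in CBDL2w, 7.2% in DSS and 6.83% in Sham6w mice. For MoMF against Mo, 1 of 35 members was lower in MoMF in each of CBDL2w, CBDL6w and DSS mice, 5 in Sham6w and 10 in CBDL+DSS mice. Of all genes 0.781% were lower in CBDL2w, 0.86% in CBDL6w, 1.05% in DSS, 4.21% in Sham6w and 2.34% in CBDL+DSS mice. In CBDL2w mice 16 members were above 0 and 19 below, with a median of -0.06 against 0.03 over all genes. The 35 members of these single-group counts include Maff, Nr4a2, Nr4a3, Dusp5 and Gadd45b, which did not pass the filter in KC. Maff and Nr4a3 did not pass it in MoMF, and Myc did not in Mo. Such members entered through the other cell types, and the single-group counts were not restricted to members that passed in both. Differences between these counts were not tested.

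Across injury groups, the mean summed share of the members was lowest in the advanced cholestatic livers of CBDL6w mice in each cell type. Single members did not all follow. In CBDL6w mice the log2 difference from Sham6w mice was above 0 for 8 of 30 tested members in KC. It was above 0 for 9 of 33 in MoMF and 5 of 34 in Mo. In KC the summed share of reads averaged 0.747 ± 0.337% in CBDL+DSS, 0.362 ± 0.0512% in CBDL6w, 0.544 ± 0.112% in CBDL2w, 0.516 ± 0.0778% in DSS and 0.466 ± 0.0441% in Sham6w mice (SD, n = 4 each). The KC libraries of CBDL+DSS mice were uneven: replicate 6 had 1.22% and the joined replicate 1+3 0.751%, while replicate 2 and the joined 4+5 had 0.506% and 0.509%. All 4 lay above the highest CBDL6w library, at 0.414%. In MoMF the share averaged 0.961% in CBDL+DSS, 0.786% in CBDL6w, 1.18% in CBDL2w, 1.12% in DSS and 0.946% in Sham6w mice. The CBDL6w MoMF libraries (0.6745 to 0.9296%) overlapped those of CBDL+DSS (0.8181 to 1.093%) and Sham6w (0.8475 to 1.002%). In Mo it averaged 1.55% in CBDL+DSS, 0.986% in CBDL6w, 1.31% in CBDL2w and 1.36% in both DSS and Sham6w mice. The 4 CBDL+DSS Mo libraries (1.36 to 1.76%) did not overlap the 4 CBDL6w Mo libraries (0.821 to 1.12%).

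**Figure D2:**
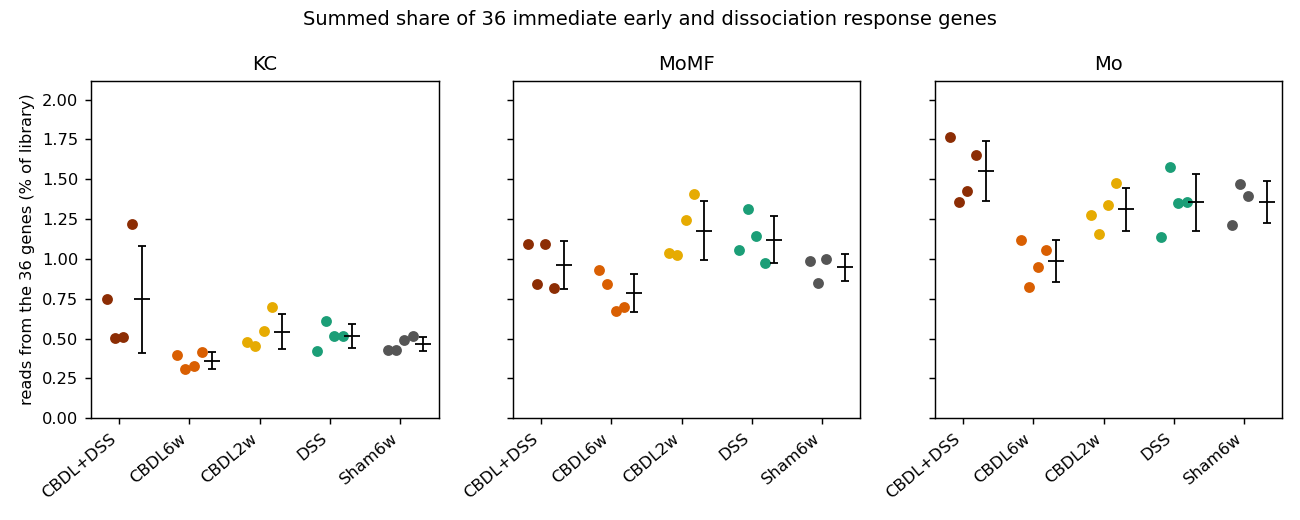
Summed share of reads (percent) taken by the 36 genes in each library, by cell type and injury group; points are libraries, and crossbars with error bars are group means ± SD. In each cell type CBDL6w has the lowest mean, and in Kupffer cells CBDL+DSS replicate 6 stands at 1.22%.

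In advanced cholestasis with colitis, set against advanced cholestasis without it, the AP-1 genes Fos and Fosb were higher in all 3 cell types, while Fosl2, Jun, Junb and Jund passed in none. In KC, 6 of 30 tested members were higher in CBDL+DSS than in CBDL6w mice and 0 lower. This is 20.0% of the members, against 0.942% of all 6159 genes higher and 0.796% lower. The median log2 difference was 0.82 over the members and 0.08 over all genes, and 29 of the 30 were above 0. Fos, the defining AP-1 subunit, had 132, 78.1, 66.0 and 195 normalized counts in CBDL+DSS KC (replicates 1+3, 2, 4+5 and 6), against 27.8, 34.1, 42.2 and 37.3 in CBDL6w KC, a rise of 1.59 ± 0.28 (log2 ± SE, adjusted p = 0.0062). Each CBDL+DSS library lay above each CBDL6w library, and replicate 6 was the highest, as it was for the genes that follow. Dusp1 had 290, 265, 193 and 612 in CBDL+DSS KC, against 51.5, 102, 105 and 141 in CBDL6w KC (1.71 ± 0.34, adjusted p = 0.0118). Fosb, a second Fos protein, had 136, 31.6, 45.8 and 229 in CBDL+DSS KC, against 21.1, 10.8, 23.0 and 22.4 in CBDL6w KC (2.09 ± 0.54, adjusted p = 0.0461). The groups were separate for both genes, with a gap between replicates 1+3 and 6 and the other CBDL+DSS libraries for Fosb.

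Ppp1r15a, which restarts translation after stress by directing dephosphorylation of eIF2alpha, had 66.9, 39.9, 62.9 and 118 in CBDL+DSS KC, against 26.4, 21.5, 32.6 and 17.1 in CBDL6w KC (1.45 ± 0.33, adjusted p = 0.0281). Rhob had 62.0, 69.0, 80.0 and 127 in CBDL+DSS KC, against 47.6, 31.4, 53.8 and 33.1 in CBDL6w KC (0.99 ± 0.23, adjusted p = 0.0336), and Klf2 75.2, 88.9, 85.5 and 171 in CBDL+DSS KC, against 52.9, 39.5, 62.4 and 56.5 in CBDL6w KC (0.92 ± 0.23, adjusted p = 0.0423). For these genes too the 2 groups did not overlap. Lack of overlap was a condition for giving passing genes in full, here and below, so it adds no support to a call. By role, 2 of 6 AP-1 subunits, 1 of 3 Klf factors, 2 of 4 tested phosphatases and inhibitors and 1 of 5 growth and survival genes rose, and 0 of the Egr, Nr4a, bZIP and decay factors passed. Egr1, with 80.8, 15.0, 21.0 and 119 in CBDL+DSS KC against 19.8, 12.6, 11.5 and 24.5 in CBDL6w KC, showed the same 2 high libraries without passing. The count of 6 depended on single libraries: it was 1 without CBDL+DSS replicate 6 and 2 without CBDL6w replicate 2 or replicate 4. It was 1 with no filter on low values and 10 with DESeq2. Fos passed with each of the 8 libraries left out (highest adjusted p = 0.0337), and Dusp1 failed only without CBDL+DSS replicate 6 (adjusted p = 0.0583). Fosb, Klf2, Ppp1r15a and Rhob failed in 7, 6, 5 and 4 of 8 omissions. Kupffer cell markers took 0.671 to 0.837% of the reads in CBDL+DSS KC and 0.324 to 0.617% in CBDL6w KC, monocyte markers took 0.0515 to 0.092% in CBDL+DSS KC and 0.0855 to 0.195% in CBDL6w KC, and their part in the result was not tested.

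**Figure D3:**
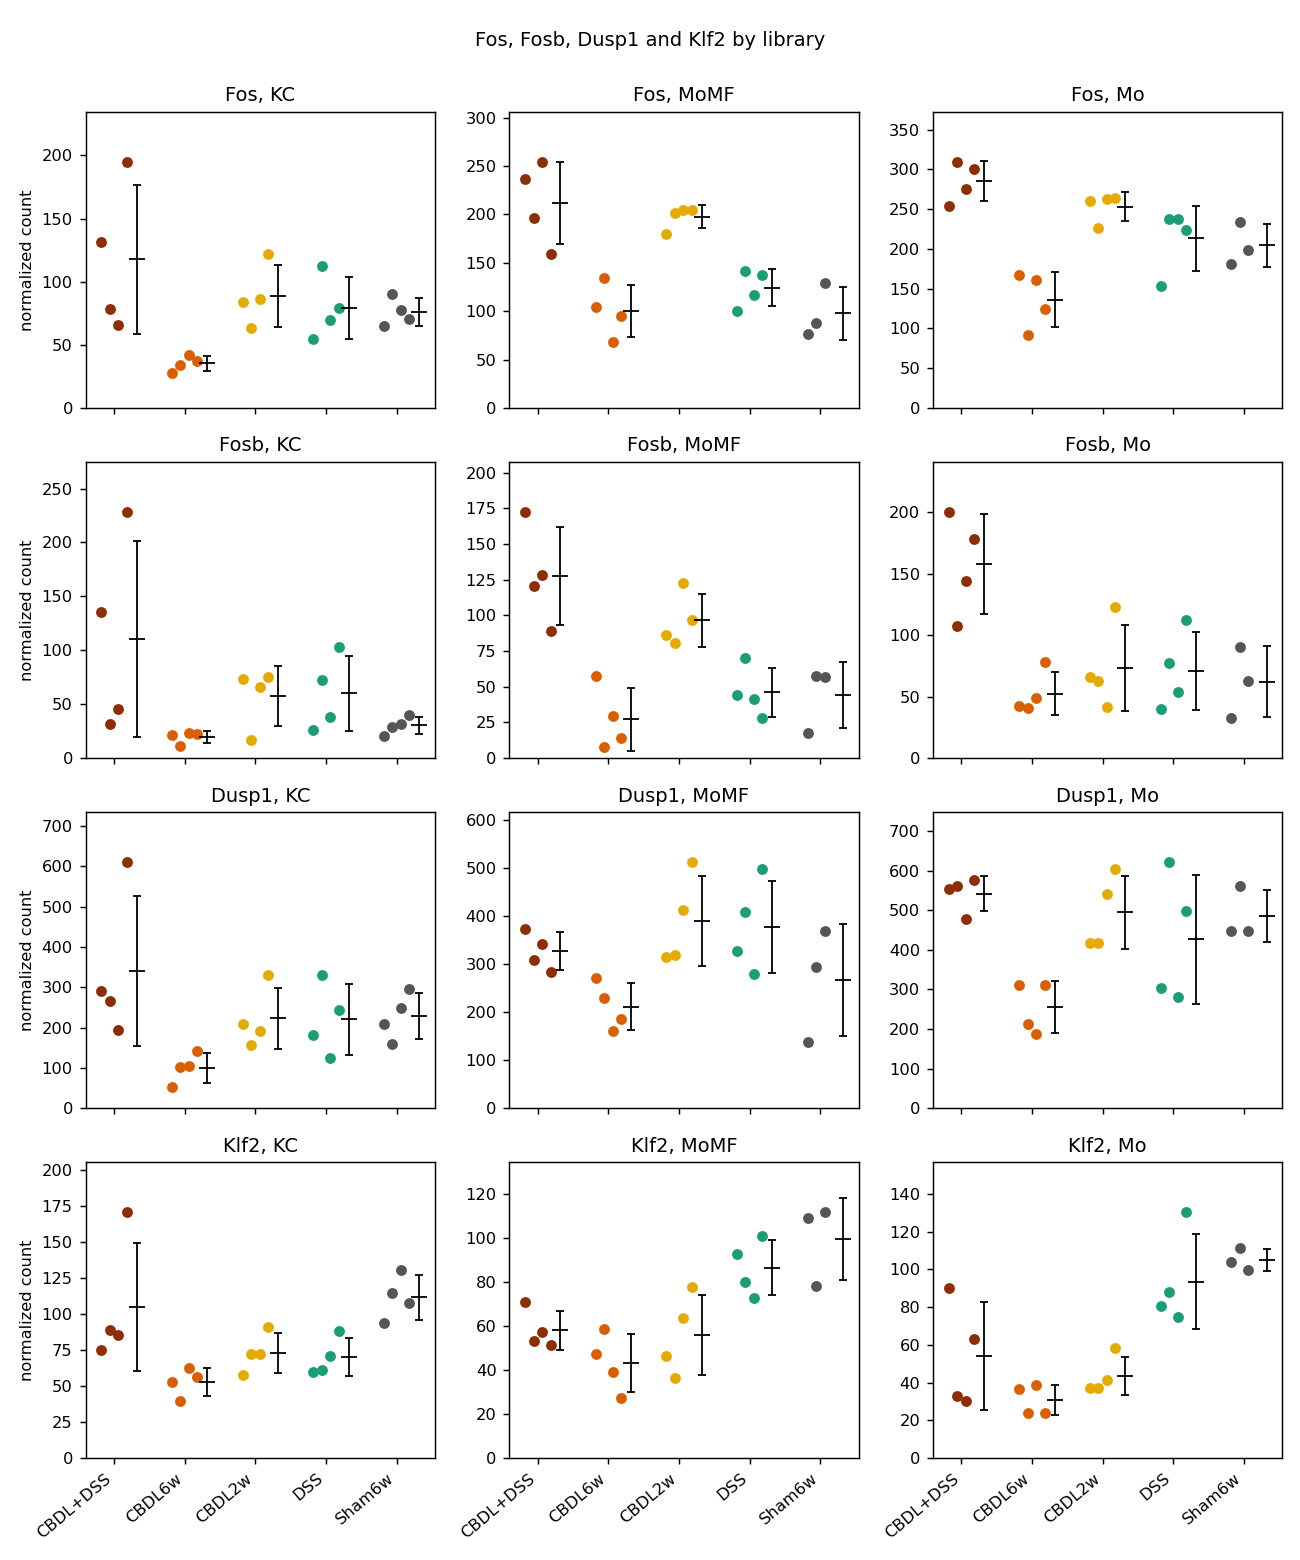
Normalized counts of Fos, Fosb, Dusp1 and Klf2 in each library, by cell type and injury group; points are libraries, and crossbars with error bars are group means ± SD. Fos and Fosb are separate between CBDL+DSS and CBDL6w in each cell type, and Klf2 has its highest group mean in Sham6w in each cell type.

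In MoMF, 5 of 33 tested members were higher in CBDL+DSS than in CBDL6w mice and 1 lower, which is 15.2% of the members higher, against 2.09% of all 6079 genes higher and 2.07% lower (4.16% in all). The medians were 0.16 and 0.03. Fos had 237, 196, 255 and 160 in CBDL+DSS MoMF (replicates 1, 2, 3 and 4+5), against 104, 134, 68.7 and 94.8 in CBDL6w MoMF (1.09 ± 0.22, adjusted p = 0.00594). Fosb had 173, 121, 128 and 89.0 in CBDL+DSS MoMF, against 57.5, 7.54, 29.5 and 14.2 in CBDL6w MoMF (2.51 ± 0.45, adjusted p = 0.00224). Both were separate between the groups and passed with each library left out. Ier3, an early gene that modulates cell death, had 105, 78.9, 99.5 and 54.5 in CBDL+DSS MoMF, against 40.4, 54.3, 37.5 and 24.6 in CBDL6w MoMF (1.10 ± 0.27, adjusted p = 0.0182), with replicate 4+5 of CBDL+DSS close to replicate 2 of CBDL6w. Rhob had 50.5, 55.8, 72.3 and 57.7 in CBDL+DSS MoMF, against 25.8, 40.7, 9.58 and 27.5 in CBDL6w MoMF (1.31 ± 0.33, adjusted p = 0.0217). Egr2 rose by 1.77 with overlapping libraries (adjusted p = 0.0344).

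The MoMF gene that fell was Dusp5, a nuclear phosphatase for ERK, at 2.76, 0.89, 3.01 and 0.80 in CBDL+DSS MoMF, against 20.6, 6.03, 15.2 and 8.53 in CBDL6w MoMF (-2.21 ± 0.46, adjusted p = 0.0075). It was near the limit of detection in each CBDL+DSS library. Dusp5 passed with each library left out. Egr2, Ier3 and Rhob failed in 5, 4 and 3 of 8 omissions, and the count of 6 passing members was 3 without CBDL6w replicate 3 and 3 with no filter on low values. Macrophage markers took 1.09 to 1.47% of the reads in CBDL+DSS MoMF and 0.323 to 0.367% in CBDL6w MoMF. That difference moved with these results, and its part in them was not tested.

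In Mo, 4 of 34 tested members were higher in CBDL+DSS than in CBDL6w mice and 0 lower, which is 11.8% of the members, against 0.295% of all 6112 genes higher and 0.278% lower. The medians were 0.63 and 0.04, and 32 of 34 members were above 0. Fos had 254, 310, 276 and 300 in CBDL+DSS Mo (replicates 1, 2, 4+5 and 6), against 167, 91.7, 161 and 125 in CBDL6w Mo (1.09 ± 0.18, adjusted p = 0.0058). Fosb had 201, 107, 144 and 178 in CBDL+DSS Mo, against 42.2, 40.6, 48.9 and 78.3 in CBDL6w Mo (1.58 ± 0.35, adjusted p = 0.0335). Dusp1 had 553, 561, 477 and 576 in CBDL+DSS Mo, against 312, 213, 187 and 312 in CBDL6w Mo (1.11 ± 0.22, adjusted p = 0.0226). In each of these 3 genes the lowest CBDL+DSS library was well above the highest CBDL6w library. Btg2, an antiproliferative gene, had 174, 170, 163 and 235 in CBDL+DSS Mo, against 107, 49.0, 72.9 and 66.9 in CBDL6w Mo (1.36 ± 0.23, adjusted p = 0.01). The count of 4 was 2 without CBDL6w replicate 2, CBDL+DSS replicate 1 or CBDL+DSS replicate 2, and 1 without CBDL+DSS replicate 6. It was 10 with DESeq2. Fos passed in each of the 8 omissions, Btg2 failed in 1 (without CBDL+DSS replicate 6, adjusted p = 0.0564), and Dusp1 and Fosb failed in 5 and 7. Endothelial markers took 0.0594 to 0.0799% of the reads in CBDL+DSS Mo and 0.0353 to 0.0586% in CBDL6w Mo.

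Set against controls, a group of these genes was lower in advanced cholestasis alone. In KC, 0 members were higher and 5 lower in CBDL6w than in Sham6w mice, which is 16.7% of the members, against 1.22% of all genes higher and 2.03% lower (3.25% in all). Over all genes the split was 75 higher and 125 lower, and 95 and 99 with libraries scaled to equal totals. Klf2 had 52.9, 39.5, 62.4 and 56.5 in CBDL6w KC, against 93.7, 115, 131 and 108 in Sham6w KC (-1.08 ± 0.23, adjusted p = 0.00956). Dusp1 had 51.5, 102, 105 and 141 in CBDL6w KC, against 210, 159, 248 and 295 in Sham6w KC (-1.24 ± 0.34, adjusted p = 0.0462). Fos had 27.8, 34.1, 42.2 and 37.3 in CBDL6w KC, against 64.9, 90.3, 77.4 and 70.5 in Sham6w KC (-1.08 ± 0.28, adjusted p = 0.0337). For all 3 genes each CBDL6w library was below each Sham6w library. Rhob fell by 0.90 ± 0.23 (adjusted p = 0.0342), and Klf4, a partner of Klf2 in macrophage polarization, had 31.7, 12.6, 22.1 and 17.1 in CBDL6w KC, against 31.9, 44.3, 54.6 and 50.6 in Sham6w KC (-1.13 ± 0.31, adjusted p = 0.044), with the highest CBDL6w library just under the lowest Sham6w library.

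Klf2 was the 1 gene of these 5 to pass with each library left out (highest adjusted p = 0.0406), and the others failed in 5 to 7 of 8 omissions. The count of 5 was 3 without CBDL6w replicate 1, 2 without CBDL6w replicate 4, and 1 without CBDL6w replicate 2 or Sham6w replicate 2, 3 or 4. It was 3 with equal totals, which ended the calls of Klf4 and Dusp1, 2 with edgeR and 1 with no filter on low values. Kupffer cell markers took 0.324 to 0.617% in CBDL6w KC and 1.01 to 1.12% in Sham6w KC, and mitochondrial transcripts averaged 5.82% of the reads in CBDL6w KC and 7.55% in Sham6w KC. Ribosomal protein genes took 11.03 to 13.25% of the reads in CBDL6w KC and 7.87 to 8.87% in Sham6w KC. Of 13 Kupffer cell markers 6 were lower. These shares moved with the result and their part in it was not tested.

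In Mo, 9 of 34 members were lower in CBDL6w than in Sham6w mice and 0 higher, which is 26.5% of the members, against 5.33% of all genes lower and 5.87% higher. The median was -0.47 over the members and -0.11 over all genes. Klf2 had 36.5, 24.0, 38.9 and 24.0 in CBDL6w Mo, against 104, 111 and 99.6 in Sham6w Mo (-1.77 ± 0.31, adjusted p = 0.000757). Klf4 had 26.9, 20.8, 47.2 and 27.8 in CBDL6w Mo, against 80.0, 99.0 and 78.3 in Sham6w Mo (-1.51 ± 0.27, adjusted p = 0.000723). Nr4a1 had 256, 149, 179 and 207 in CBDL6w Mo, against 383, 360 and 373 in Sham6w Mo (-0.93 ± 0.21, adjusted p = 0.00467). The 3 Sham6w libraries were close together for Klf2 and Nr4a1, and for all 3 genes they were clear of the CBDL6w libraries. Dusp1 had 312, 213, 187 and 312 in CBDL6w Mo, against 447, 561 and 448 in Sham6w Mo (-0.95 ± 0.24, adjusted p = 0.0102). Rhob fell by 1.21 ± 0.25 (adjusted p = 0.00264), Ier5, a regulator of heat shock factor activity, by 0.94 ± 0.20 (adjusted p = 0.00386), and Fos by 0.62 ± 0.19 (adjusted p = 0.0417). Dusp5 fell as well, at 2.08 to 5.05 in CBDL6w Mo against 10.5 to 21.7 in Sham6w Mo, and Btg2 fell with overlapping libraries. Of these, Klf2, Klf4, Rhob, Nr4a1, Ier5 and Dusp5 passed in each of 7 omissions, Dusp1 failed without Sham6w replicate 3+6 (adjusted p = 0.0659), and Fos and Btg2 failed in 5.

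These monocyte values carry the endothelial difference described above. Endothelial markers took 0.0353 to 0.0586% of the reads in CBDL6w Mo and 0.335 to 0.572% in Sham6w Mo, and 13 of 14 tested endothelial markers were lower. Of the 15 endothelial markers in the table, 1, Oit3, was at 0 in every CBDL6w Mo library and none was at 0 throughout Sham6w Mo. Neutrophil markers took 0.0133 to 0.0394% in CBDL6w Mo and 0.0223 to 0.222% in Sham6w Mo. Lymphoid markers took 0.00065 to 0.0042% in CBDL6w Mo and 0.0194 to 0.0439% in Sham6w Mo. Ribosomal protein genes took 15.3 to 17.0% in CBDL6w Mo and 9.635 to 10.8% in Sham6w Mo. The part of these shares in the falls was not tested. Klf2, Klf4 and Rhob are also known from endothelial cells, and the part of these cells in the falls was not tested. In MoMF, where endothelial markers took 0.0326 to 0.0382% in CBDL6w and 0.0455 to 0.0646% in Sham6w mice, 1 of 33 members was lower and 0 higher, against 0.806% of all genes lower and 0.411% higher. That gene was Klf2, with 47.2, 58.8, 39.1 and 27.5 in CBDL6w MoMF, against 109, 78.2 and 112 in Sham6w MoMF (-1.22 ± 0.28, adjusted p = 0.0257). The MoMF groups were separate, but the count was 0 without CBDL6w replicate 3 or 4 or Sham6w replicate 1+2+5 or 4+6, 2 without Sham6w replicate 3, 0 with no filter on low values, and 2 with DESeq2. Klf2 was thus lower in CBDL6w than in Sham6w mice in all 3 cell types.

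**Figure D4:**
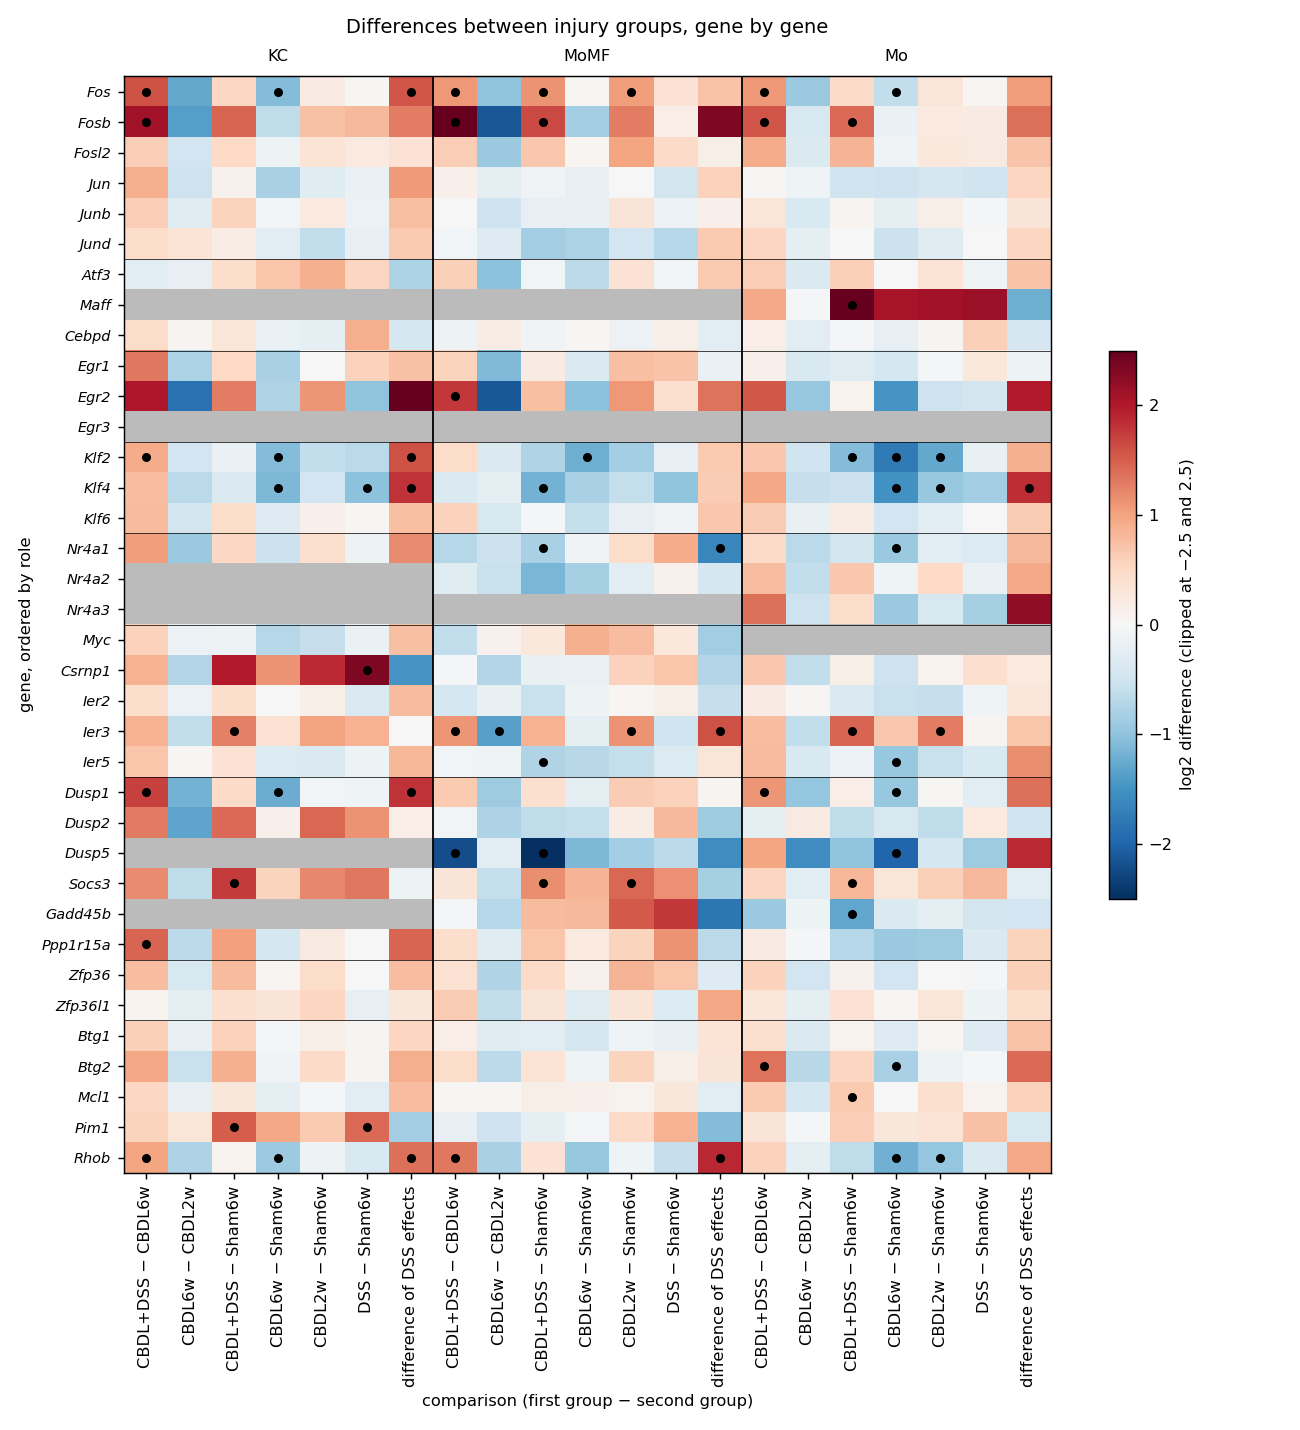
Heat map of the log2 difference of each member in each comparison and cell type; dots mark an adjusted p under 0.05 and grey cells were not tested. CBDL+DSS minus CBDL6w is positive for 29 of 30 members in KC and 32 of 34 in Mo, and dots in CBDL6w minus Sham6w fall on negative cells.

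Combined injury set against controls gave a mixed picture. In KC, 3 of 30 members were higher in CBDL+DSS than in Sham6w mice and 0 lower, which is 10.0% of the members, against 1.61% of all genes higher and 1.7% lower (3.31% in all). The median was 0.50 against 0.02, and 27 of 30 members were above 0. Pim1, a survival kinase induced by cytokines, had 150, 39.9, 90.1 and 133 in CBDL+DSS KC, against 29.8, 26.7, 36.7 and 34.0 in Sham6w KC (1.52 ± 0.32, adjusted p = 0.00824). Socs3 had 33.5, 19.1, 19.4 and 48.4 in CBDL+DSS KC, against 11.7, 3.64, 12.9 and 5.81 in Sham6w KC (1.74 ± 0.45, adjusted p = 0.0309). Ier3 had 47.4, 34.1, 21.8 and 61.5 in CBDL+DSS KC, against 19.2, 15.2, 12.9 and 15.8 in Sham6w KC (1.25 ± 0.33, adjusted p = 0.0375). The groups did not overlap for any of the 3, although replicate 2 for Pim1 and replicate 4+5 for Ier3 lay close to the controls. Pim1 passed with each library left out, whereas Socs3 failed in 4 and Ier3 in 7 of 8 omissions. The count of 3 was 1 without Sham6w replicate 2 or 4 or CBDL+DSS replicate 1+3 or 6, 1 with no filter on low values, 0 without the libraries of joined replicate numbers, and 8 with DESeq2. Kupffer cell markers took 0.671 to 0.837% of the reads in CBDL+DSS KC and 1.01 to 1.12% in Sham6w KC. Mitochondrial transcripts took 4.55 to 5.75% in CBDL+DSS KC and 6.45 to 9.0% in Sham6w KC, and ribosomal protein genes 9.45 to 11.9% in CBDL+DSS KC and 7.87 to 8.87% in Sham6w KC. The part of these shares in the result was not tested.

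In MoMF, 3 of 33 members were higher and 4 lower in CBDL+DSS than in Sham6w mice, with 4.61% of all genes higher and 5.2% lower (9.8% in all) and medians of -0.02 and 0.08. Fos had 237, 196, 255 and 160 in CBDL+DSS MoMF, against 76.8, 88.0 and 129 in Sham6w MoMF (1.12 ± 0.24, adjusted p = 0.00394). Fosb rose by 1.66 ± 0.49 (adjusted p = 0.0337) and Socs3 by 1.17 ± 0.31 (adjusted p = 0.0208). Dusp5 fell to 2.76, 0.89, 3.01 and 0.80 in CBDL+DSS MoMF, against 29.7, 23.9 and 24.6 in Sham6w MoMF (-3.33 ± 0.50, adjusted p = 0.000177). Fos and Dusp5 were separate between the groups and passed in each of 7 omissions. Nr4a1 had 82.7, 90.4, 88.9 and 83.4 in CBDL+DSS MoMF, against 99.1, 217 and 162 in Sham6w MoMF (-0.81 ± 0.25, adjusted p = 0.0424), Klf4 fell by 1.19 and Ier5 by 0.75 (adjusted p = 0.0316 and 0.0361). Nr4a1 and Ier5 failed in 6 of 7 omissions, Fosb in 4, Klf4 in 3 and Socs3 in 2 (without Sham6w replicate 4+6 or CBDL+DSS replicate 1). The count of 7 was 4 without Sham6w replicate 4+6 or CBDL+DSS replicate 3, 3 without CBDL+DSS replicate 1 or 2, and 2 with no filter on low values. Macrophage markers took 1.09 to 1.47% of the reads in CBDL+DSS MoMF and 0.335 to 0.503% in Sham6w MoMF, and their part was not tested.

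In Mo, 5 of 34 members were higher and 2 lower in CBDL+DSS than in Sham6w mice, with 7.0% of all genes higher and 6.07% lower and medians of 0.10 and -0.07. Ier3 had 261, 217, 174 and 200 in CBDL+DSS Mo, against 91.8, 45.9 and 106 in Sham6w Mo (1.45 ± 0.26, adjusted p = 0.00102), separate between the groups and past the threshold in each of 7 omissions. Mcl1, a survival protein of the Bcl2 family, had 174, 150, 151 and 150 in CBDL+DSS Mo, against 112, 89.3 and 97.3 in Sham6w Mo (0.65 ± 0.17, adjusted p = 0.016). Fosb rose by 1.41 ± 0.37 (adjusted p = 0.017) and Socs3 by 0.83 ± 0.24 (adjusted p = 0.0258). Maff also passed, from low levels of 27.3, 9.21, 13.1 and 7.23 in CBDL+DSS Mo against 3.94, 0 and 0 in Sham6w Mo. Klf2 had 90.3, 32.7, 30.1 and 63.3 in CBDL+DSS Mo, against 104, 111 and 99.6 in Sham6w Mo (-1.08 ± 0.31, adjusted p = 0.0261), and Gadd45b, a stress sensor of the p38 pathway, fell by 1.3 ± 0.42 (adjusted p = 0.0416). Replicate 1 of CBDL+DSS stood near the controls for Klf2, and 12 of 14 tested endothelial markers were lower in the same comparison. The count of 7 was 4 without Sham6w replicate 1+2+5 or 3+6 or CBDL+DSS replicate 4+5, 3 without Sham6w replicate 4, and 3 with no filter on low values. Fosb failed without Sham6w replicate 1+2+5 and Mcl1 without Sham6w replicate 3+6, and Socs3, Gadd45b, Klf2 and Maff failed in 4 or 5 of 7 omissions.

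At the onset of cholestasis few members differed from controls. In KC, 0 members passed in CBDL2w against Sham6w mice by limma or edgeR and 2 by DESeq2, while 5 were higher and 2 lower at an unadjusted p under 0.05, as were 931 of all 6159 genes in either direction. Of all genes 2.71% passed, 1.09% higher and 1.62% lower, a split of 67 and 100 genes that was 123 and 87 with equal totals. In MoMF, 3 of 33 were higher and 0 lower, which is 9.1% of the members, against 1.69% of all genes higher and 1.37% lower (3.06% in all). Fos had 180, 201, 205 and 205 in CBDL2w MoMF, against 76.8, 88.0 and 129 in Sham6w MoMF (1.04 ± 0.24, adjusted p = 0.0144). Socs3 had 74.9, 59.6, 83.3 and 92.6 in CBDL2w MoMF, against 39.6, 35.9 and 14.7 in Sham6w MoMF (1.44 ± 0.31, adjusted p = 0.0115). Ier3 had 93.2, 77.5, 112 and 114 in CBDL2w MoMF, against 49.5, 43.5 and 41.2 in Sham6w MoMF (1.12 ± 0.29, adjusted p = 0.0315). All 3 were separate, with the CBDL2w libraries of Fos close together. Fos failed only without Sham6w replicate 1+2+5 (adjusted p = 0.0625), Socs3 only without Sham6w replicate 4+6 (adjusted p = 0.0603), and Ier3 in 4 of 7 omissions. The count of 3 was 5 without Sham6w replicate 3. Monocyte markers took 0.513 to 0.627% of the reads in CBDL2w MoMF and 0.151 to 0.221% in Sham6w MoMF, and their part in the result was not tested.

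In Mo, 1 member was higher and 3 lower in CBDL2w than in Sham6w mice, with 8.05% of all genes higher and 5.71% lower and medians of -0.02 and -0.10. Ier3 had 194, 134, 206 and 232 in CBDL2w Mo, against 91.8, 45.9 and 106 in Sham6w Mo (1.28 ± 0.26, adjusted p = 0.00181). Klf2 had 36.9, 37.0, 41.4 and 58.3 in CBDL2w Mo, against 104, 111 and 99.6 in Sham6w Mo (-1.28 ± 0.31, adjusted p = 0.00748). Both were separate and passed in each omission. Klf4 fell by 0.94 and Rhob by 0.96 (adjusted p = 0.0193 and 0.0114), and both failed without Sham6w replicate 3+6, where the count of 4 was 2 as it was with no filter on low values, and Klf4 also without CBDL2w replicate 2. As in CBDL6w mice, 13 of 14 endothelial markers were lower.

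Advanced against early cholestasis moved few genes. No member passed in CBDL6w against CBDL2w mice in KC or Mo by limma or edgeR, with 1 and 2 by DESeq2. At an unadjusted p under 0.05, 0 were higher and 9 lower in KC, and 0 and 11 in Mo. Over all genes 0.0% passed in KC and in Mo, with 449 and 404 genes at an unadjusted p under 0.05. The medians were -0.49 over the members and -0.03 over all genes in KC, and -0.38 and -0.02 in Mo. In MoMF, 1 member was lower, against 0.0823% of all genes, and 30 of 33 were below 0 with a median of -0.55 against -0.02. Ier3 had 40.4, 54.3, 37.5 and 24.6 in CBDL6w MoMF, against 93.2, 77.5, 112 and 114 in CBDL2w MoMF (-1.35 ± 0.27, adjusted p = 0.0477). The groups were separate, but Ier3 failed in 7 of 8 omissions. The count was 0 without CBDL6w replicate 3 or 4 or any 1 CBDL2w library, 2 without CBDL6w replicate 2, 0 with equal totals, 0 with no filter on low values and 4 with DESeq2.

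Few members passed in colitis alone. In KC, 2 were higher and 1 lower in DSS than in Sham6w mice, against 3.34% of all genes higher and 4.55% lower (7.89% in all), and the medians were -0.01 and -0.07. Over all genes the split was 206 higher and 280 lower, and 335 and 203 with equal totals. Pim1 had 102, 97.6, 113 and 48.6 in DSS KC, against 29.8, 26.7, 36.7 and 34.0 in Sham6w KC (1.42 ± 0.32, adjusted p = 0.0115), and passed in each omission. Klf4 had 15.2, 26.3, 20.1 and 25.8 in DSS KC, against 31.9, 44.3, 54.6 and 50.6 in Sham6w KC (-1.02 ± 0.31, adjusted p = 0.0444), and failed in 7 of 8 omissions and with equal totals. The groups were separate for both. Csrnp1, a nuclear protein of the early response, passed from low levels of 6.26, 11.3, 27.4 and 8.93 in DSS KC against 3.19, 2.43, 0 and 1.66 in Sham6w KC (adjusted p = 0.0158). It failed without Sham6w replicate 3 or DSS replicate 3. The count of 3 was 1 without DSS replicate 3 and 6 with DESeq2. Macrophage markers took 0.612 to 0.72% of the reads in DSS KC and 1.19 to 1.52% in Sham6w KC, Kupffer cell markers 0.719 to 0.887% in DSS KC and 1.01 to 1.12% in Sham6w KC, and mitochondrial transcripts 3.48 to 5.2% in DSS KC and 6.45 to 9.0% in Sham6w KC. Their part in the result was not tested. In MoMF and Mo, 0 members passed by limma or edgeR and 3 in each by DESeq2, while 7 were higher and 2 lower in MoMF, and 3 and 2 in Mo, at an unadjusted p under 0.05. At that threshold 1081 of all 6079 genes passed in either direction in MoMF and 1098 of 6112 in Mo. Of all genes 1.27% were higher and 0.806% lower in MoMF, and 1.05% and 0.54% in Mo. Without Sham6w replicate 3 the MoMF count was 2, without Sham6w replicate 1+2+5 or 4+6 it was 1, and without DSS replicate 1 the Mo count was 1.

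Whether colitis had the same effect with and without ligation was tested as the difference between CBDL+DSS minus CBDL6w and DSS minus Sham6w. In KC, 5 of 30 members had a larger change with ligation and 0 a smaller one, which is 16.7% of the members, against 3.75% of all genes larger and 2.27% smaller (6.02% in all), and the medians were 0.76 and 0.14. Over all genes the split was 231 and 140, and 182 and 184 with equal totals. The difference was 1.59 ± 0.32 for Klf2 (log2 ± SE, adjusted p = 0.00519), 1.37 ± 0.33 for Rhob (adjusted p = 0.0178) and 1.80 ± 0.44 for Klf4 (adjusted p = 0.0183), and these 3 passed in each of 16 omissions. It was 1.57 ± 0.40 for Fos (adjusted p = 0.0222), which failed without Sham6w replicate 2 (adjusted p = 0.0524), and 1.81 ± 0.48 for Dusp1 (adjusted p = 0.0293), which failed in 4 of 16. The count of 5 was 3 with no filter on low values. Klf2 shows how the 4 groups lay: 75.2 to 171 in CBDL+DSS KC against 39.5 to 62.4 in CBDL6w KC, and 59.9 to 88.3 in DSS KC against 93.7 to 131 in Sham6w KC. With ligation the colitis libraries were above, and without it below. Of 13 Kupffer cell markers 7, and of 15 mitochondrial transcripts 6, also had a larger change with ligation, and their part in the result was not tested.

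In MoMF, 2 members had a larger and 1 a smaller change with ligation, with 1.2% and 0.888% of all genes and medians of 0.12 and -0.07. Nr4a1 had the smaller change, by -1.64 ± 0.34 (adjusted p = 0.0113): it was at 82.7 to 90.4 in CBDL+DSS MoMF against 108 to 197 in CBDL6w MoMF, and at 238 to 339 in DSS MoMF against 99.1 to 217 in Sham6w MoMF. It passed in each of 15 omissions. Ier3 and Rhob had larger changes by 1.59 ± 0.39 and 1.89 ± 0.48 (adjusted p = 0.0329 and 0.0404), and failed in 6 and 12 of 15 omissions. The count of 3 was 1 without CBDL6w replicate 3 or 4, DSS replicate 3, or CBDL+DSS replicate 1, 2 or 3, 1 with no filter on low values, and 5 with DESeq2. Endothelial markers took 0.199 to 0.231% of the reads in DSS MoMF, 0.0484 to 0.0915% in CBDL+DSS, 0.0326 to 0.0382% in CBDL6w and 0.0455 to 0.0646% in Sham6w MoMF. Macrophage markers took 0.198 to 0.251% in DSS MoMF, 1.09 to 1.47% in CBDL+DSS, 0.323 to 0.367% in CBDL6w and 0.335 to 0.503% in Sham6w MoMF. The part of these marker shares in the MoMF result was not tested. In Mo, 1 member, Klf4, had a larger change, by 1.84 ± 0.36 (adjusted p = 0.0232), with 0.115% of all genes larger and 0.196% smaller. It failed in 7 of 15 omissions, so that the count was 0 without CBDL6w replicate 1 or 2, Sham6w replicate 1+2+5 or 3+6, DSS replicate 4, or CBDL+DSS replicate 1 or 6. The count was 2 without CBDL6w replicate 4, 3 without DSS replicate 2, 0 with no filter on low values, and 5 with DESeq2.

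Beyond the 36 genes, 20 further early targets of NF-kB, the factor that drives inflammatory transcription, were followed in the same comparisons. In CBDL+DSS against CBDL6w mice, 2 of 18 tested were higher in KC, where the feedback inhibitor Tnfaip3 rose by 2.64 and the chemokine Cxcl2 by 1.77 on the log2 scale. In MoMF 3 of 18 were higher (Cxcl1 by 1.72 and Ccl3 by 1.67, both chemokines) and in Mo 3 of 19 (Cxcl1 by 1.88 and Tnfaip3 by 1.08), with 0 lower in each. Of all genes 0.942% were higher in KC, 2.09% in MoMF and 0.295% in Mo. In CBDL2w against Sham6w MoMF, 3 were higher, led by Cxcl2 at 2.64 and Cxcl1 at 1.94, against 1.69% of all genes. Between cell types 19 of 20 were lower in KC than in Mo, among them Ptgs2 (-4.13) and Nfkbiz (-2.51), and 1 was higher. Against MoMF 13 were lower and 1 higher. Of these 20 genes 18 passed the filter on low values in KC, 18 in MoMF and 19 in Mo. Those that failed it in a cell type entered through the others, and the counts were not restricted to genes that passed in both. Of all genes 19.6% were lower and 21.6% higher in KC than in Mo, and 14.5% lower and 18.0% higher than in MoMF. A list of further early genes held 5 of 13 with a larger change of colitis with ligation in KC, led by Rgs1 (1.51) and Dusp6 (1.28). Of all genes 3.75% had a larger change there.

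Within groups, many of the members varied together across libraries. After subtraction of each group's mean, the log2 level of a member correlated with the log2 summed level of the other members over 58 libraries at r = 0.83 for Egr1, 0.77 for Jun, 0.75 for Junb, 0.74 for Dusp2, 0.72 for Nr4a1 and 0.69 for Fos, and at -0.04 for Cebpd and -0.12 for Myc. Among pairs of the 35 tested members the median r was 0.24, and 86.4% of 595 pairs were above 0, while the median r of all genes with the sum of the members was -0.01. Of genes outside the list, the 10 with the highest r were Nfkbia (0.81), Cxcl2 (0.79), Nfkbiz (0.73), Ifrd1 (0.72), Il1b (0.69), Ccrl2 (0.65), Tnf (0.60), Cxcl1 (0.58), Ezr (0.56) and Phlda1 (0.54). The summed NF-kB list, which shares no gene with the members, followed the sum at r = 0.89. The summed heat shock list did so at 0.13, mitochondrial transcripts at -0.13, endothelial markers at -0.28 and log2 total reads at -0.14. In MoMF alone the last 2 were -0.70 and -0.49. Points share their library, and isolation stress was not tested as a source.

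Libraries that carry the same injury group and replicate number in different cell types mostly lay on the same side of their group means. Over 16 such pairs of KC and Mo libraries the deviations of the log2 summed level correlated at r = 0.74 (Spearman rho = 0.89), with the same sign in 15, and r was 0.87 without the 2 pairs farthest from the median on the first axis. Over 14 pairs of KC and MoMF the values were r = 0.69, rho = 0.69, same sign in 10 and 0.58 without 2 pairs. Over 15 pairs of MoMF and Mo they were 0.67, 0.66, 11 and 0.60. Per gene the correlation was higher over the members than over all genes: the median over the 35 members was 0.26 for KC and MoMF, 0.33 for KC and Mo and 0.36 for MoMF and Mo, against 0.05, 0.03 and 0.06 over all genes, with 28, 29 and 30 members above 0. Egr1 reached 0.65, 0.88 and 0.89, Dusp2 0.81, 0.88 and 0.70 and Socs3 0.75, 0.62 and 0.62 in the same order. Egr1 in CBDL2w mice illustrates the pattern, with 20.9, 12.9, 43.8 and 60.2 in KC, 86.3, 67.1, 119 and 140 in MoMF and 77.9, 50.5, 95.1 and 105 in Mo for replicates 1 to 4. In each cell type replicate 4 was highest and replicate 2 lowest. The labels do not say that equal numbers mark one mouse or one day of isolation, and over all genes no pair correlated above 0.1. Most libraries still correlated best over all genes with their own number. This held for 17 of 22 between KC and MoMF, 20 of 30 between KC and Mo and 22 of 28 between MoMF and Mo.

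**Figure D5:**
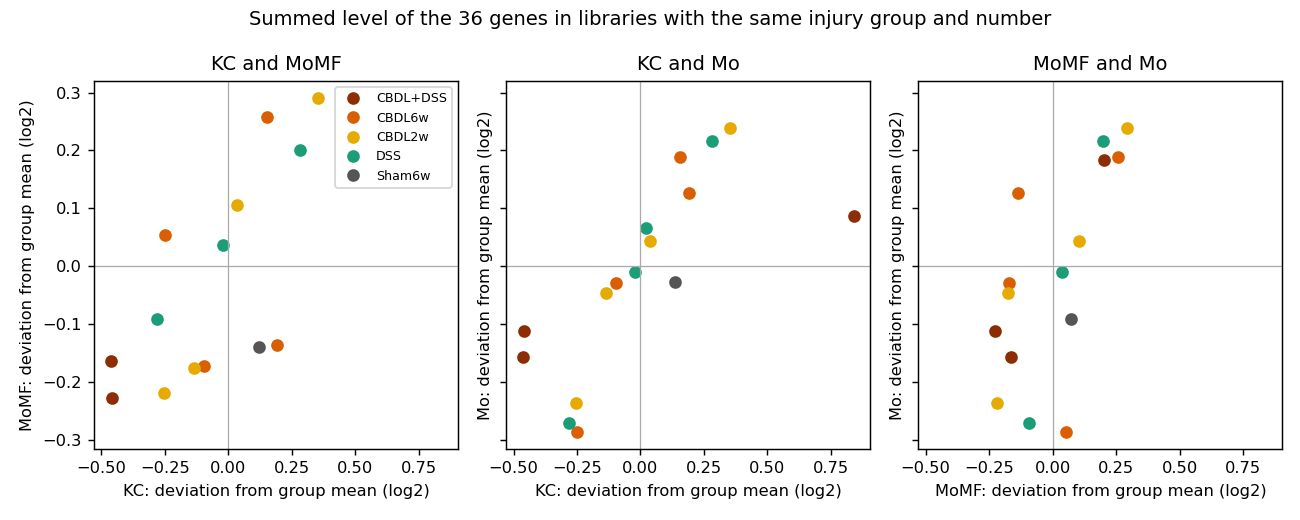
Deviation of the log2 summed member level from its group mean in libraries that share injury group and replicate number, for each pair of cell types; each point is 1 pair of libraries. Points rise together in each panel, with r = 0.69 over 14 pairs for KC and MoMF, 0.74 over 16 for KC and Mo, and 0.67 over 15 for MoMF and Mo.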

How the data were processed

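Per the labels' protocols, the 58 libraries were 3' end mRNA libraries carrying unique molecular identifiers. The deposited values are a normalized signal: the authors scaled the reads of every gene by 1 size factor for each library. In no stated order, the submitters' processing notes list STAR 2.7.5b, RSEM 1.3.1, UMI-tools 1.0.1, DESeq2, Trimmomatic (0.39, 0.39-1) and the build GRCm38.p6. Division by each column's smallest step gave whole reads for 100% of values within 0.01, with size factors from 0.404 to 1.675. Symbols were found for 25242 of 25307 identifiers in GENCODE M21. No 2 libraries held identical values, and replicates of a group correlated at 0.807 to 0.93 across genes.

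Groups came from the labels. Comparisons of injury groups were made inside a cell type, and those of cell types over all libraries with the 5 injury groups weighted equally, by limma 3.58.1 in R 4.3.3 (two-sided) on log2(normalized count + 1), a scale that understates changes of low genes. Genes with at least 10 normalized counts in at least 3 libraries were tested, and p-values were adjusted over all of them by Benjamini-Hochberg with a threshold of 0.05. Of the 36 members 30 were tested in KC, 33 in MoMF, 34 in Mo and 35 across cell types. Maff, Nr4a2, Nr4a3, Dusp5 and Gadd45b were left out in KC, Maff and Nr4a3 in MoMF, Myc in Mo and Egr3 throughout. A member that passed the filter only through the group where it is high had to differ. Counts are over members that passed the filter in the libraries of the fit. Between cell types, averaged over injury groups, they are also given over members that passed in both cell types. Within single injury groups they are not. Shares of reads carry no test. The members and lists were chosen with earlier results of these data known.

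Full values were given for members past the threshold with no overlap between groups and a mean of at least 20 normalized counts in the higher group, up to 8 per comparison, for members past the threshold in a difference of effects, and for the 6 most abundant members per cell type. Separation of the groups in genes chosen for it follows from this rule. The share of all genes that separate was not computed between injury groups. Egr1 and the low or overlapping genes (Csrnp1, Maff, Dusp5 and Btg2 in CBDL6w monocytes, Gadd45b, Egr2) fall outside this rule and were named after their values were seen. Promoter windows came from RefSeq on GRCm38.p6. The limma test was checked on simulated data.

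Alternatives were a pseudocount of 5, no filter, equal library totals, the recovered reads tested with DESeq2 1.42.0 or edgeR 4.0.16, a block for the replicate number, only those libraries whose label holds a single number, and omission of each library. Same-numbered libraries were checked for shared deviations from their group means over all genes. The correlations were -0.061 to 0.095 over 45 pairs across cell types and -0.05 to 0.053 over 38 pairs across injury groups. Such values cannot decide whether libraries were paired, since no pair of known origin was available as a reference. The labels do not state pairing, so the main fits treated each library as independent, also across cell types.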

Additional observations from a re-analysis of the deposited data

Results flagged for a closer look

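For genes given in full, each group of 4 libraries was examined for a library far from the other 3 relative to the group's range. Of 85 such groups 5 stood out, and chance alone flags about 1 in 20. In KC of CBDL6w mice, Fosb had 10.76 normalized counts in replicate 2, against 21.15 to 23.03 in the other libraries. In KC of CBDL+DSS mice, Klf2 had 171.3 in replicate 6, against 75.25 to 88.9 in the others. In MoMF of CBDL2w mice, Fos had 180.1 in replicate 1, against 201.3 to 205.0 in the others. In Mo of CBDL+DSS mice, Mcl1 had 174.3 in replicate 1, against 150.0 to 151.3, and Btg2 had 234.9 in replicate 6, against 162.9 to 174.3.

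The log2 difference between the change with colitis under ligation (CBDL+DSS minus CBDL6w) and the change with colitis alone (DSS minus Sham6w) passed for 9 combinations of gene and cell type. In KC it was 1.57 for Fos, 1.59 for Klf2, 1.8 for Klf4, 1.81 for Dusp1 and 1.37 for Rhob. In MoMF it was -1.64 for Nr4a1, 1.59 for Ier3 and 1.89 for Rhob. In Mo it was 1.84 for Klf4. Rhob passed in KC and in MoMF, and Klf4 in KC and in Mo. Each test compared 4 groups, and the difference of these values between cell types was not tested.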

How the results depend on the processing

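No call of a member turned direction under any alternative run. Of 150 calls of a member in a comparison, 150 kept the threshold with a pseudocount of 5, 148 with DESeq2, 146 with equal totals, 142 with edgeR, 110 without a filter on low values and 88 with the replicate block, and of 3761 calls recomputed with 1 library left out, 3550 did. With single replicate numbers only, 8 of 14 did. The 150 pool injury calls with 31, 33 and 18 calls between cell types. The cell type counts moved little, at 29, 33 and 17 with no filter and 31, 33 and 19 with the block. The pooled figures therefore overstate how stable the calls between injury groups were. In what follows "effect difference" stands for the change with colitis under ligation minus that without. With no filter the number of members that passed was 1 in KC for CBDL6w minus Sham6w, CBDL+DSS minus Sham6w and CBDL+DSS minus CBDL6w, 3 for the KC effect difference, 0 in MoMF for CBDL6w minus Sham6w and CBDL6w minus CBDL2w, 2 in MoMF for CBDL+DSS minus Sham6w, 3 in MoMF for CBDL+DSS minus CBDL6w, 1 for the MoMF effect difference, 2 in Mo for CBDL2w minus Sham6w, 3 in Mo for CBDL+DSS minus Sham6w and 0 for the Mo effect difference, where more genes enter the adjustment. With equal totals it was 3 in KC for CBDL6w minus Sham6w, 2 in MoMF for DSS minus Sham6w and 0 in MoMF for CBDL6w minus CBDL2w. With a pseudocount of 5 it was 2 in MoMF for both of these last comparisons. With edgeR it was 2 in KC for CBDL6w minus Sham6w. With DESeq2 it was 2 in KC for CBDL2w minus Sham6w, 6 for DSS minus Sham6w, 8 for CBDL+DSS minus Sham6w, 1 for CBDL6w minus CBDL2w and 10 for CBDL+DSS minus CBDL6w. In MoMF DESeq2 gave 2 for CBDL6w minus Sham6w, 3 for DSS minus Sham6w, 4 for CBDL6w minus CBDL2w and 5 for the effect difference. In Mo it gave 3 for DSS minus Sham6w, 2 for CBDL6w minus CBDL2w, 10 for CBDL+DSS minus CBDL6w and 5 for the effect difference. With single replicate numbers only it was 0 in KC for CBDL+DSS minus Sham6w. Apart from the added genes, the cause of these moves was not tested.

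With the replicate block the number was 0 in KC for CBDL+DSS minus Sham6w, CBDL+DSS minus CBDL6w and the effect difference, 0 in MoMF for the 3 against Sham6w that include ligation, CBDL6w minus CBDL2w and the effect difference, 4 in MoMF for CBDL+DSS minus CBDL6w, and 0 in Mo for these 3 against Sham6w, CBDL+DSS minus CBDL6w and the effect difference. Joined labels form block levels of their own, so few numbers are shared and the block removes those libraries from the comparison. As a hint from the data and not the design, 17 of 22 libraries correlated best with their own number between KC and MoMF, 20 of 30 between KC and Mo and 22 of 28 between MoMF and Mo. Each had 3 or 4 numbers to match. With the block, 31 members passed between KC and MoMF, 33 between KC and Mo and 19 between MoMF and Mo.

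With 1 library left out, the number in KC ran from 0 to 0 for CBDL2w minus Sham6w and CBDL6w minus CBDL2w, 1 to 4 for CBDL6w, DSS and CBDL+DSS each minus Sham6w, 1 to 5 for CBDL+DSS minus CBDL6w and 4 to 7 for the effect difference. In MoMF it ran from 2 to 5 for CBDL2w minus Sham6w, 0 to 2 for CBDL6w minus Sham6w, DSS minus Sham6w and CBDL6w minus CBDL2w, 3 to 6 for CBDL+DSS minus Sham6w and for CBDL+DSS minus CBDL6w, and 1 to 4 for the effect difference. In Mo it ran from 2 to 5 for CBDL2w minus Sham6w, 6 to 10 for CBDL6w minus Sham6w, 0 to 1 for DSS minus Sham6w, 3 to 6 for CBDL+DSS minus Sham6w, 1 to 6 for CBDL+DSS minus CBDL6w and 0 to 3 for the effect difference.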

Other observations

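Heat shock and chaperone genes, which tissue handling can also induce, showed a pattern of their own. In MoMF the 16 genes took 0.932% of the reads in CBDL+DSS, 0.997% in CBDL6w, 0.894% in CBDL2w, 1.54% in DSS and 1.74% in Sham6w mice. In Mo they took 0.72% in CBDL+DSS, 0.736% in CBDL6w, 0.629% in CBDL2w, 1.1% in DSS and 1.35% in Sham6w mice. The 3 groups with ligation were thus below the 2 groups without it in both cell types. In KC they took 0.746 to 1.41% in Sham6w, overlapping 0.667 to 1.02% with ligation, and 1.07 to 1.26% in DSS mice. In Mo, endothelial markers took 0.217 to 0.572% without ligation and 0.0353 to 0.0811% with it, and lymphoid markers 0.0132 to 0.0439% and 0.0006 to 0.0042%. In MoMF the endothelial shares of Sham6w libraries overlapped those with ligation. The part of these markers in the heat shock shares was not tested. Of 14 heat shock genes tested in MoMF, 4 fell in CBDL+DSS against Sham6w mice, among them the cochaperone Dnaja1 by 1.59 and the chaperone Hsp90aa1 by 1.40 on the log2 scale. A fall was also seen for 3 in CBDL6w and 3 in CBDL2w mice. Of all genes in MoMF 5.2% were lower in CBDL+DSS, 0.806% in CBDL6w and 1.37% in CBDL2w mice. Of 15 tested in Mo, 7 fell in CBDL+DSS, 4 in CBDL6w and 6 in CBDL2w mice, and of all genes in Mo 6.07% were lower in CBDL+DSS, 5.33% in CBDL6w and 5.71% in CBDL2w mice. In CBDL+DSS against CBDL6w mice 0 of these genes passed in any of the 3 cell types, by limma.

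Targets of the glucocorticoid receptor moved in KC. Of 5 tested, 4 had a larger change with colitis under ligation than with colitis alone, led by the receptor cochaperone Fkbp5 at 3.76 and the factor Klf9 at 2.67 on the log2 scale, against 3.75% of all genes with a larger change. In KC of CBDL6w mice 2 were lower than in Sham6w mice, and in DSS mice 2 were lower, against 2.03% of all genes lower in CBDL6w and 4.55% in DSS mice.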
